A study of Homo sapiens with 12 samples.

Results

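The plasminogen activator system was examined through 6 listed genes: PLAU, PLAT, PLAUR, PLG, SERPINE2 and SERPINB2. Its members were taken as the accessible sites called at these genes. A site belonged to a gene when its summit, the position of highest signal, lay inside the RefSeq gene (GRCh38) or within 10 kb of it. By that rule 29 of the 188019 summits in the deposited list were assigned, in 27 intervals. The genes were listed by name and not by a cut on any measured value, but with earlier results of these data known.

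Plasminogen is an inactive zymogen made mainly by the liver. Urokinase (PLAU) and tissue-type plasminogen activator (PLAT) cleave it to plasmin, a broad protease that degrades fibrin and matrix proteins. Urokinase acts at the cell surface, bound to its receptor PLAUR, and serpins such as protease nexin-1 (SERPINE2) and plasminogen activator inhibitor 2 (SERPINB2) inhibit the activators. In invading tumour cells the system works beside the matrix metalloproteinases as a route of pericellular proteolysis.

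The cells were HT1080, an established human fibrosarcoma line. They migrated for 48 h in rat tail collagen I at 0.3 mg/mL (low), 1 mg/mL (medium) or 1.7 mg/mL (high), with 4 libraries per concentration and 12 in all. All 3 groups carried the same agent, the broad metalloproteinase inhibitor GM6001 at 20 µM, so no group without metalloproteinase inhibition was part of the design. Cells were recovered with collagenase and frozen before ATAC-seq, which marks open chromatin by the insertion of adapters by a transposase.

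The peak list was pooled over the series, and no column named a library or a concentration. The members could therefore not be compared between collagen concentrations, no value below has a replicate spread, and the depth per library is unknown. Each summit had the authors' enrichment (a ratio of signal to local background), −log10 p and −log10 q. The pileup (the count overlapping the summit) and the local background were recovered from the enrichment and p. Both are called fragments here, although whether fragments or single reads were counted is not given. The lowest background in the list was 20.3 fragments, called the genome-wide background here. Exact Poisson 95% intervals of a pileup are given in brackets. They cover counting error only, and may be too narrow even for that, since reads without molecular identifiers are not independent molecules. The same holds for the binomial intervals of pileup ratios below. As a check of the label, 6 of 6 mesenchymal marker genes had a summit within 1000 bp of a start, against 1 of 4 epithelial, 2 of 4 blood and 0 of 4 hepatocyte markers. The same was true of 65.9% of all 20037 protein-coding genes. Where no start was tabulated (2 mesenchymal, 3 epithelial, 3 blood and 1 hepatocyte marker), either gene end stood in for it. The strongest enrichment in a gene or within 10 kb did not follow these counts. Its median over genes with a summit was 9.76 for mesenchymal, 15.9 for epithelial, 11.7 for blood and 6.38 for hepatocyte markers.

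Each of the 6 genes had at least 1 summit, as did 89.8% of all protein-coding genes. PLAT had 8 summits, PLAUR and SERPINB2 had 7 each, PLAU and SERPINE2 had 3 each, and PLG had 1. A summit lay within 1000 bp of a start at 4 of the 6 genes (PLAUR, PLAT, SERPINE2 and SERPINB2), near the 65.9% of all protein-coding genes. Of the 29 summits, 4 were at a start, 11 lay inside the gene they were assigned to, and 19 had a −log10 q of at least 10. Across all summits of protein-coding genes and their 10 kb, 22.1% lay at a start, 74.2% inside a protein-coding gene, and 70.1% reached that q. The 74.2% counts any protein-coding gene and the 11 only the assigned gene, so these are not like for like.

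**Figure D1:**
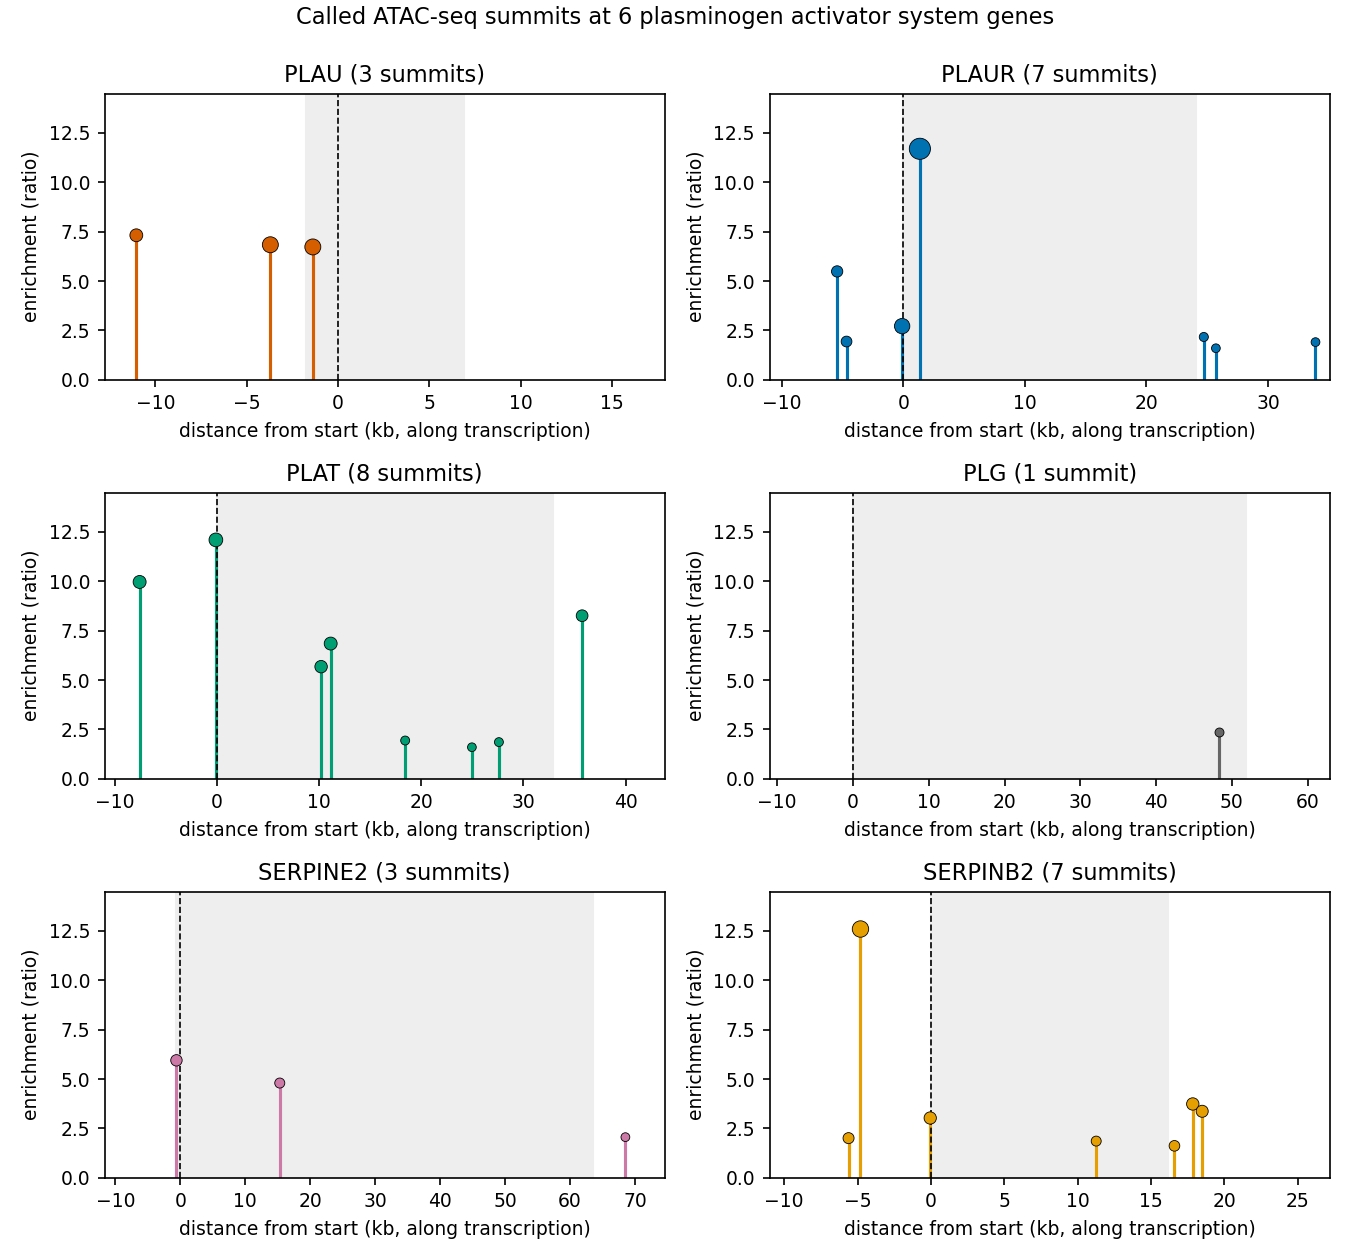
Enrichment (ratio, vertical) of every called summit against its distance from the most upstream start given by the RefSeq promoter table (kb, horizontal, along transcription; for PLAT, the upper end of the gene). Grey marks the gene body, the dashed line the start, and larger points a higher pileup. PLAU has 3 summits, all upstream of the dashed line, while PLG has 1 summit of enrichment 2.39 far inside the gene.

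The activator PLAU, urokinase, lies on chromosome 10 from 73908832 to 73917494 on the forward strand. Its 3 summits had enrichments between 6.73 and 7.32, a narrow range, and all lay upstream of both starts that the promoter table gives (73910610 and 73911132). The site nearest the starts, chr10:73908793-73909538, had its summit 1385 bp before the first of them. It had an enrichment of 6.73 from a pileup of 1144 fragments (1079 to 1212) over a local background of 169. The second site, chr10:73906547-73907294, had its summit 3710 bp before that start, with an enrichment of 6.84 from a pileup of 1147 (1082 to 1215) over a background of 167. These 2 sites could not be separated by counting error: the ratio of their pileups was 0.997 (95% exact binomial interval 0.918 to 1.08).

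The third PLAU site was weaker in fragments but not in enrichment. Its interval, chr10:73899127-73899889, had a summit 11045 bp before the start, a pileup of 401 (363 to 442) over a background of 53.9 and an enrichment of 7.32. Classical reporter studies of the human urokinase gene described an upstream enhancer with AP-1 and ETS sites; whether any of these summits lies in it was not tested, since genome sequence was not used here. The RefSeq gene record begins at 73908832, so the summit nearest the starts lay 393 bp inside it. It was 744 bp from an end of C10orf55, an overlapping long noncoding RNA gene. If the ends of the gene record are used in place of the tabulated starts, PLAU counts as having a summit at an end and the count becomes 5 of 6 genes, against 65.7% of all protein-coding genes.

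No summit was called within 1000 bp of either tabulated PLAU start. The window before the downstream start is shown because it is rich in GC boxes; the base composition of both windows is given after it. The 250 bases before 73911132 (chr10:73910882-73911131, forward strand, GRCh38.p14, RefSeq) read as follows, with GC boxes (GGGCGG, searched on both strands) in capitals.
PLAU: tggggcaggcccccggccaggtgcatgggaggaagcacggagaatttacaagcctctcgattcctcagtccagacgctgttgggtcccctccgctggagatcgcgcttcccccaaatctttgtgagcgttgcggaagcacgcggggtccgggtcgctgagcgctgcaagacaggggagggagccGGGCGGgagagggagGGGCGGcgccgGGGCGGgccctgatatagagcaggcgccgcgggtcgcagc

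This window held 3 GC boxes, beginning 66, 51 and 40 bases before the start. As many were found in 18.3% of the 22199 windows of protein-coding starts. It had 68.8% G and C and 24 CpG dinucleotides. Of the 2773 windows within 2 percentage points of that GC content, 79.9% had a summit within 1000 bp, and this PLAU start was among those without one. The window before the other start, 73910610, had 46.8% G and C, and 37.1% of the 1440 windows of like GC content had a summit, so the lack of one is the more common case there. The absence has a limit, which depends on the local background at the starts, a value the list does not give. At the 167 to 169 fragments of the 2 nearer summits, a pileup of 206 to 208 is the least that reaches the lowest −log10 p of the list, 2.75, which is 10.1 to 10.2 times the genome-wide background. At the 53.9 fragments of the outermost summit it is 77, or 3.79 times. A weaker signal at a PLAU start was not detectable.

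PLAT, tissue-type plasminogen activator, lies on chromosome 8 from 42174718 to 42207565. The promoter table used here gives no strand or start for it; the gene is transcribed from the reverse strand, so its upper end stands for the start, and no summit lay within 1000 bp of its lower end. PLAT had the highest enrichment at a start of the 6 genes. The summit of chr8:42207284-42207984 lay 111 bp before the start, with an enrichment of 12.1 from a pileup of 558 (513 to 606) over a background of 45.2. Of the 13207 protein-coding genes with a summit at a start, 48.7% had a stronger one there.

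A second PLAT site stood upstream. In chr8:42214886-42215604 the summit was 7578 bp before the start, with an enrichment of 9.97 from a pileup of 419 (380 to 461). The site at the start had 1.33 times its pileup (95% exact binomial interval 1.17 to 1.52). A hormone-responsive enhancer upstream of the human PLAT gene is known from reporter work, and its overlap with this site was not tested.

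Inside PLAT, 2 sites 938 bp apart formed a pair, 10190 and 11128 bp past the start. Their enrichments were 5.68 and 6.85 and their pileups 340 (305 to 378) and 411 (372 to 453), a ratio of 1.21 (1.04 to 1.40) for the stronger over the weaker. The other 3 summits inside the gene reached enrichments of 1.60 to 1.94 and pileups of 40 to 49, close to the lowest pileup in the list, 35. The eighth summit, with an enrichment of 8.26 from a pileup of 250 (220 to 283), lay 2897 bp beyond the gene and 638 bp from an end of the neighbouring gene AP3M2, which encodes an adaptor protein subunit. Exon and intron boundaries were not used here, so sites inside genes are given by distance only.

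PLAUR encodes the urokinase receptor, a membrane-anchored protein that holds urokinase at the cell surface. It lies on chromosome 19 from 43646095 to 43670169 on the reverse strand. The highest pileup of all 29 summits was at this gene, and it was not at the tabulated start. The summit of chr19:43668309-43669357 lay 1364 bp inside the gene, with a pileup of 4017 fragments (3894 to 4143), 198 times the genome-wide background. Of the 17996 protein-coding genes with a summit in the gene or within 10 kb, 1.43% had a higher pileup there.

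The enrichment of this PLAUR site was 11.7, which is below the median of 12.4 for the strongest summit per gene over the same 17996 genes. The local background there was 343 fragments, so the rank of the gene depends on which measure is used: 55.4% of those genes had a stronger enrichment. The summit lay 41 bp from the start of LOC124904724, a long noncoding RNA gene on the forward strand that overlaps the beginning of PLAUR. The list does not separate strands, so the site cannot be assigned to one of the 2 genes.

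The PLAUR start had a weaker site, chr19:43670091-43670385. Its summit lay 94 bp before the start, with an enrichment of 2.72 from a pileup of 954 (894 to 1017) over a background of 351. The site inside the gene had 4.21 times that pileup (95% exact binomial interval 3.92 to 4.52) and 4.30 times that enrichment. In pileup the start stood 46.9 times above the genome-wide background, although 91.5% of the genes with a summit at a start had a stronger enrichment there. The summit fell in the tabulated promoter, which is shown with the AP-1 motif (TGANTCA, both strands) in capitals (chr19:43670170-43670419, reverse strand, GRCh38.p14, RefSeq, 250 bases before the start).
PLAUR: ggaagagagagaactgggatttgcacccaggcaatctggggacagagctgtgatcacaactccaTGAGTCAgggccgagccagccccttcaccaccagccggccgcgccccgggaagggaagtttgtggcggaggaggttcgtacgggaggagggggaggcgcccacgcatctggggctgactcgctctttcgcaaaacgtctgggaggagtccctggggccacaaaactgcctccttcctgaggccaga

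The AP-1 match began 186 bases before the PLAUR start, and 216 of the 250 bases lay inside the called interval. AP-1 is the family of Fos and Jun transcription factors. A match to TGANTCA was present in 5.36% of all 22199 windows. It is a match of letters and not a measured binding site.

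The remaining PLAUR summits lay outside the gene. Upstream, 5440 bp before the start, chr19:43675344-43676121 had an enrichment of 5.49 from a pileup of 203 (176 to 233), and another summit 4668 bp before the start had an enrichment of 1.94 from a pileup of 155. Downstream of the gene, 3 weak summits had enrichments of 1.60 to 2.17 and pileups of 41 to 54. One of these, 9828 bp past the gene and near the edge of the 10 kb window, lay inside CADM4, a cell adhesion gene.

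PLG encodes plasminogen, the substrate of both activators. It spans chromosome 6 from 160702193 to 160754097, and a single weak summit was called in the 71.9 kb examined. The interval chr6:160750336-160750594 had its summit 48211 bp past the nearest start, with a pileup of 50 (37 to 66) over the genome-wide background. Its enrichment was 2.39 and its −log10 q 6.49. It did not reach a −log10 q of 10. Of the protein-coding genes with a summit, 96.9% had a stronger site.

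No summit lay within 1000 bp of the 2 tabulated PLG starts. The promoter is shown for contrast with those of PLAU and PLAUR: the 250 bases before 160702193 held none of the 5 motifs searched (chr6:160701943-160702192, forward strand, GRCh38.p14, RefSeq, no capitals because no motif matched).
PLG: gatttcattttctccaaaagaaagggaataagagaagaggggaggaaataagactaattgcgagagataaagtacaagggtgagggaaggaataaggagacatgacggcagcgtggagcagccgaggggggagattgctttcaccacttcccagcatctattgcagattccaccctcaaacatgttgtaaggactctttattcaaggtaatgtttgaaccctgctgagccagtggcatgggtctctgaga

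This window had 46.4% G and C, and 36.5% of the 1286 windows of like GC content had a summit within 1000 bp. At the genome-wide background, 35 fragments were the least that could be called, so a PLG start with fewer was not detectable. Genes with plasminogen-like sequence, among which reads may be hard to place, had strongest enrichments above the 2.39 of PLG. All were below the median of 12.4 over protein-coding genes with a summit. LPA, which encodes apolipoprotein(a), had 14 summits with a strongest enrichment of 4.77, and PLGLB1 and PLGLB2 had 2 and 1 with a strongest of 3.10 at each. None of the 3 had a summit within 1000 bp of a start or, for LPA, of either end.

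Other genes of the liver's plasma proteins were read beside PLG. A summit lay within 1000 bp of a start at 2 of these 12 genes, against 65.9% of all protein-coding genes. The 2 were TF, encoding transferrin, with an enrichment of 8.03, and F2, encoding prothrombin, with 1.76. ALB, FGA and FGG, encoding albumin and 2 fibrinogen chains, had no summit in the gene or within 10 kb. The remaining 9 of the 12 genes had one, against 89.8% of all protein-coding genes. Their median strongest enrichment was 6.05, below the 12.4 over all protein-coding genes with a summit but above the 2.39 of PLG. Of the genes with a summit, APOH alone was below PLG. Like PLG, the 10 genes of this list other than TF and F2 had none at a start.

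SERPINE2 encodes protease nexin-1, a serpin that inhibits urokinase, tissue-type activator, plasmin and thrombin. The gene is on the reverse strand of chromosome 2, from 223975045 to 224039286, and had few sites for its length: 0.356 summits per 10 kb, against a median of 0.589 over protein-coding genes. The strongest, chr2:224038541-224039712, had its summit 596 bp before the start at 224038640 and 50 bp inside the upper end of the gene record. Its enrichment was 5.95 and its pileup 217 (189 to 248) over a background of 35.6. Of the 13207 protein-coding genes with a summit at a start, 79.7% had a stronger one there. The end of LOC124907991, a long noncoding RNA gene, lay 166 bp from this summit.

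A second SERPINE2 site stood inside the gene, in chr2:224023031-224023475, with its summit 8148 bp past the nearest start, with an enrichment of 4.80 from a pileup of 103 (84 to 125). The strongest site had 2.11 times its pileup (95% exact binomial interval 1.66 to 2.69). The third summit, 4921 bp beyond the gene, had an enrichment of 2.06 from a pileup of 43. It lay nearer to the neighbouring gene MRPL44, 2410 bp from an end of it.

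The tabulated SERPINE2 starts differed. The 250 bases before 224038640 lay wholly inside the called interval, whereas no summit lay within 1000 bp of the start at 224031478. The window before that second start is shown because of its repeated CCAAT boxes (CCAAT on either strand, so ATTGG as well), in capitals together with a GC box and an E-box (CACGTG) (chr2:224031479-224031728, reverse strand, GRCh38.p14, RefSeq).
SERPINE2: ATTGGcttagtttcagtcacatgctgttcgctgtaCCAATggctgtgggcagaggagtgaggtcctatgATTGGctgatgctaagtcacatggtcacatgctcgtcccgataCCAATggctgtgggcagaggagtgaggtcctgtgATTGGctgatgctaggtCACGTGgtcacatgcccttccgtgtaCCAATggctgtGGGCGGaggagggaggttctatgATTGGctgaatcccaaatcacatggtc

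It held 7 CCAAT boxes, a number reached in 0.0135% of windows, while 32.7% held at least 1. The boxes come in a tandem repeat, so they are not independent matches. A GC box was present in 53.7% of windows and an E-box in 7.37%.

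SERPINB2 encodes plasminogen activator inhibitor 2, a serpin that inhibits urokinase and is mostly retained inside cells. It lies on the forward strand of chromosome 18, from 63887705 to 63903888, and its 7 summits gave 1.93 per 10 kb, the highest density of the 6 genes; 5.56% of protein-coding genes were denser. With each interval counted once it had 1.38 per 10 kb, below PLAUR (1.59) and PLAT (1.51). As at PLAUR, the strongest site was not at the start. The interval chr18:63881963-63883171 held its strongest summit 4802 bp before the start, with an enrichment of 12.6 from a pileup of 1298 (1228 to 1371) over a background of 102. A weaker summit of the same interval, 5615 bp before the start, had an enrichment of 2.01 from a pileup of 177.

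At the SERPINB2 start, chr18:63887508-63887838 had its summit 48 bp upstream, with an enrichment of 3.03 from a pileup of 316 (282 to 353) over a background of 104. The upstream site had 4.11 times that pileup (95% exact binomial interval 3.63 to 4.66) and 4.17 times that enrichment. Again the local backgrounds were nearly equal (102 and 104), so the ratios are not independent. The start summit lay inside LOC124904356, a long noncoding RNA gene whose strand is not given in the table used. The promoter is shown with an AP-1 match and a TATA box (TATAAA, both strands) in capitals (chr18:63887455-63887704, forward strand, GRCh38.p14, RefSeq).
SERPINB2: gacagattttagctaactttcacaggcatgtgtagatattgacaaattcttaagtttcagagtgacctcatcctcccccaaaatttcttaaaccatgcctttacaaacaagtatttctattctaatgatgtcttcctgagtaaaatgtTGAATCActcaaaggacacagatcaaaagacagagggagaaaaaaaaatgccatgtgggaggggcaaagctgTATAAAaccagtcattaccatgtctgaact

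The AP-1 match began 102 bases and the TATA box 30 bases before the start, and 197 of the 250 bases lay in the called interval. TATA boxes of this spelling were present in 9.0% of windows. With 37.2% G and C and 0 CpG dinucleotides, this was the poorest in GC of the members' windows. Of the 827 windows of like GC content, 16.2% had a summit within 1000 bp, and SERPINB2 was among them. The 2 PLAU starts, both without a summit, had shares of 79.9% and 37.1% among windows of like GC content. The shares were 74% at the PLAUR start and 83.2% at the SERPINE2 start 224038640, both with a summit. They were 54.2% at the SERPINE2 start 224031478 and 36.5% and 34.6% at the PLG starts, all without one. These are descriptions of single genes and were not tested.

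Downstream of SERPINB2 a cluster of 3 summits lay 415, 1664 and 2306 bp beyond the gene, with enrichments of 1.62, 3.74 and 3.37 and pileups of 147, 332 and 288. Those at 1664 and 2306 bp shared 1 interval. The nearer end of the neighbouring serpin gene SERPINB10 lay 1764 bp from the last of them. The summit inside SERPINB2 had an enrichment of 1.86 from a pileup of 99.

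**Figure D2:**
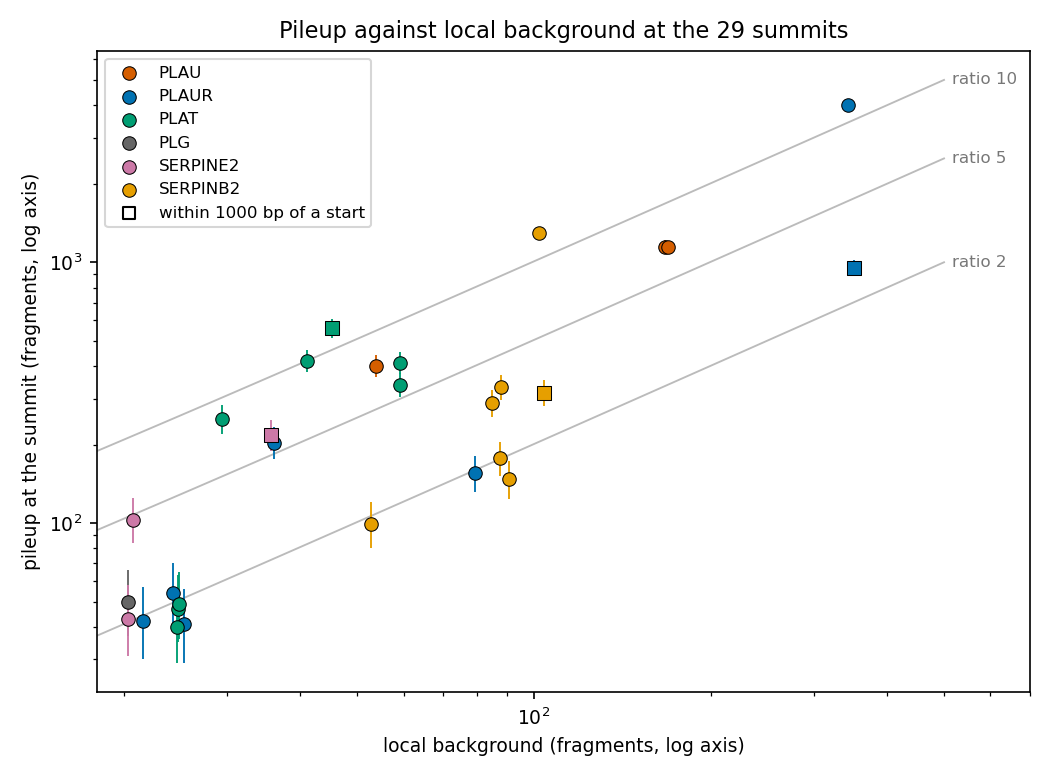
Pileup at the summit against the local background, both in fragments on log axes, for the 29 summits, coloured by gene. Squares are summits within 1000 bp of a start, bars are exact Poisson 95% intervals, and grey lines mark enrichments of 2, 5 and 10; the PLAUR start and the PLAUR site inside the gene have nearly the same background, 351 and 343 fragments, and differ in pileup.

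The strongest site was at the start in 2 of the 6 genes, PLAT and SERPINE2. Over all protein-coding genes with a summit, 47.6% had their strongest at a start. At PLAUR and SERPINB2 a summit at the start was accompanied by a stronger one elsewhere. The same held for 35.1% of the 13207 protein-coding genes with a summit at a start. By pileup in place of enrichment, again 2 of the 6 genes had their highest site at the start, against 49.1% of genes. These shares are too near the background to mark out the 6 genes.

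The local background was raised above the genome-wide value at 27 of the 29 summits, against 75.3% of all summits of protein-coding genes and their 10 kb. It was highest at PLAUR (343 and 351 fragments near the start) and PLAU (167 and 169), and lowest at PLG and at the outermost SERPINE2 summit, both at the genome-wide value. A high background lowers the enrichment of a site with a given pileup. The order of the genes therefore depended on the measure. By strongest enrichment it was SERPINB2 (12.6), PLAT (12.1), PLAUR (11.7), PLAU (7.32), SERPINE2 (5.95) and PLG (2.39). By highest pileup it was PLAUR (4017), SERPINB2 (1298), PLAU (1147), PLAT (558), SERPINE2 (217) and PLG (50).

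In that order of pileups, SERPINB2 (1228 to 1371) and PLAU (1082 to 1215) came closest, and their counting intervals did not overlap. PLAUR had 7.20 times the pileup of PLAT (95% exact binomial interval 6.59 to 7.88), although its enrichment was 0.965 times that of PLAT. SERPINE2 and PLG were the lowest by both measures. Copy number in this line was not analysed here.

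**Figure D3:**
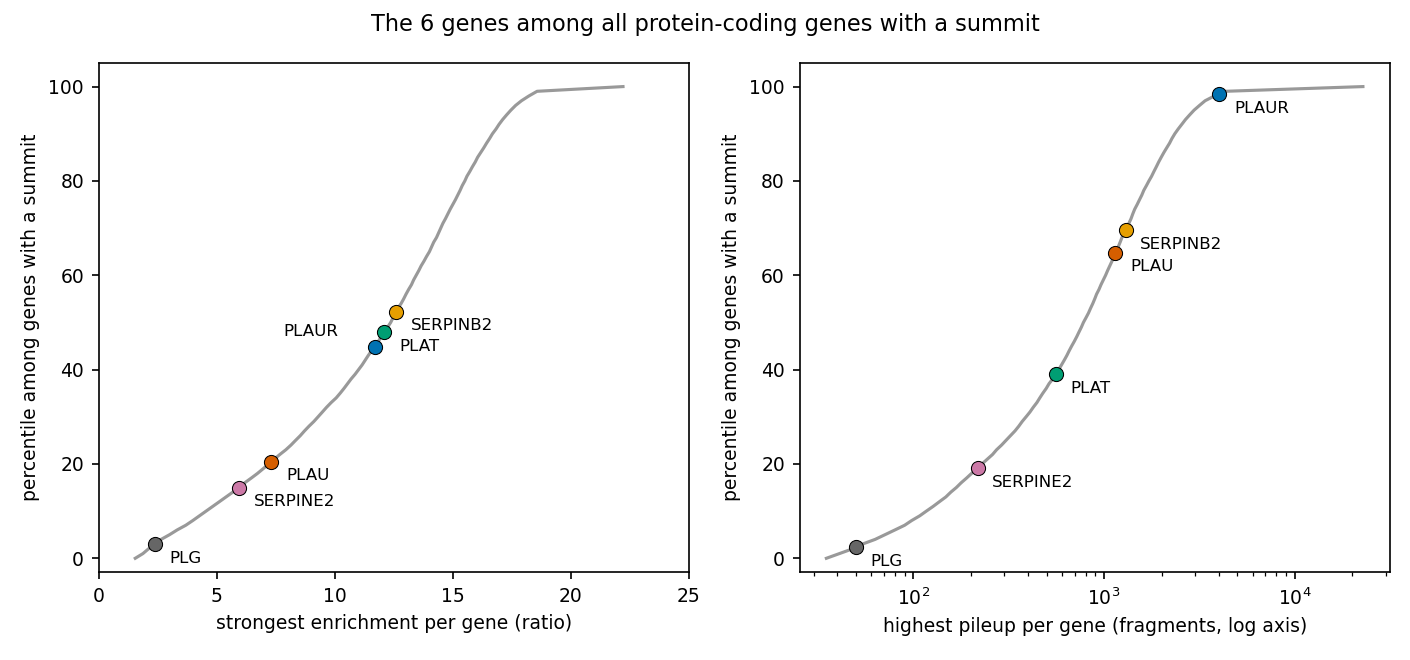
Percentile of each of the 6 genes (points) among all 17996 protein-coding genes with a summit (grey curve), by strongest enrichment (left, ratio) and by highest pileup (right, fragments on a log axis). PLAUR lies near the middle on the left at 11.7 and near the top on the right at 4017 fragments, and PLG near the bottom of both.

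Sites just beyond the 10 kb window were compared by value only. PLAU had 6 further summits 14079 to 24004 bp from the gene, of which the nearest had an enrichment of 7.52 from a pileup of 424, alike to the outermost PLAU site inside the window at 9267 bp (7.32 and 401). No protein-coding gene lay within 1000 bp of those 6. SERPINB2 had a strong summit 18057 bp away, with an enrichment of 13.2 from a pileup of 592. The strongest summits beyond the window at PLAT (13.7 and 2716) and SERPINE2 (13.6 and 973) lay at the neighbouring genes AP3M2 and MRPL44. PLG had 2, with enrichments of 2.91 and 1.97.

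Another 23 genes of the plasminogen system, listed by role, were read beside the 6. A summit lay within 1000 bp of a start at 12 of 23, against 65.9% of all protein-coding genes. The median of the strongest enrichment per gene was 9.62 in this list and 9.49 over the 6 genes, compared with 12.4 over all protein-coding genes with a summit. The roles differed in their counts, as set out next, without a test between them.

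Receptors, cofactors and binding proteins had a summit at a start in 10 of 11 genes. The strongest was at PLGRKT (13.2), a plasminogen receptor, followed by IGF2R (12.2), a multifunctional receptor that binds PLAUR, and the lipoprotein receptor VLDLR (11.9). ENO1, an enolase that also binds plasminogen at the cell surface, had 9.62 and a pileup of 2408. ANXA2 and S100A10, which form a complex that binds plasminogen and PLAT, had enrichments at their starts of 8.29 and 4.13, with pileups of 1763 and 1012. LRP1, which clears inhibitor-bound activators, had 7.07, and MRC2, a collagen receptor that associates with PLAUR, had 9.14 at an end of the gene.

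The weakest starts in that group belonged to secreted plasma proteins. VTN, encoding vitronectin, had 1.74 and CLEC3B, encoding tetranectin, 2.28. HRG, encoding histidine-rich glycoprotein, had no summit in the gene or within 10 kb. The strongest summit within 10 kb of VTN, 17.1, lay within 1000 bp of starts of POLDIP2 and VMA12.

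Among proteases that activate the system, 1 of 6 had a summit at a start. It was CTSB, the lysosomal protease cathepsin B, with 8.36 at an end of the gene. KLKB1, F12 and F11, the plasma contact proteases, and the membrane proteases ST14 and HPN had none there. Their strongest summits elsewhere in the gene or within 10 kb ranged from 1.97 at F11 to 13.7 at ST14.

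Among the other inhibitors, 1 of 6 had a summit at a start: SERPINI1, encoding neuroserpin, with an enrichment of 13.1 from a pileup of 2129, at a site also within 1000 bp of a start of PDCD10. SERPINF2, SERPINA5, A2M and CPB2, encoding α2-antiplasmin, protein C inhibitor, α2-macroglobulin and a carboxypeptidase that protects fibrin, had summits only elsewhere, with a strongest of 5.44 to 14.6. The value at CPB2, 14.6, lay within 1000 bp of a start of ZC3H13. SERPING1, encoding C1 inhibitor, had no summit in the gene or within 10 kb. For 6 of the 23 genes the promoter table gave no start, and both gene ends stood in for it.

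**Figure D4:**
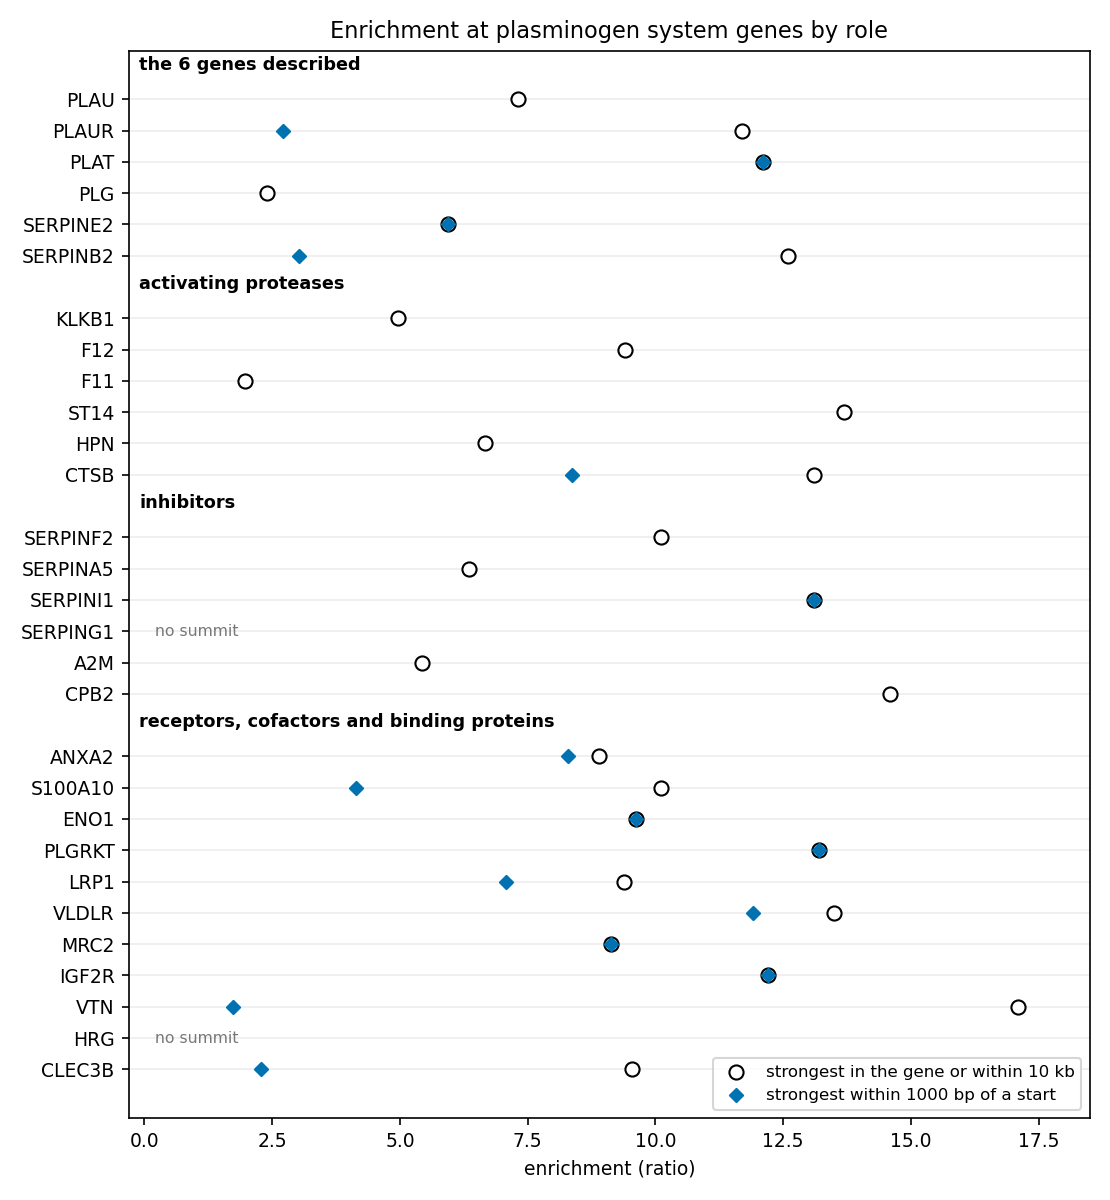
Enrichment (ratio, horizontal) of the strongest summit in the gene or within 10 kb (open circles) and of the strongest within 1000 bp of a start (blue diamonds), by gene and role. Diamonds are present for 4 of the 6 genes described, 1 of 6 activating proteases, 1 of 6 inhibitors and 10 of 11 receptors, cofactors and binding proteins.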

How the data were processed

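ATAC-seq was measured in 12 libraries of HT1080 cells. Per the submitters' processing notes, fastp 0.20.0, Bowtie2 2.4.3, deepTools 3.5.0, SAMtools and MACS2 2.2.7.1 were used with build hg38; parameters, pooling and filters are not given in the sources used here. The deposited file held 1 pooled peak list with an enrichment ratio, −log10 p and −log10 q per summit, and a score equal to about 10 times the −log10 q, made by the authors. The lowest deposited −log10 q was 1.30. Total counts per library, and so depth and replicate error, were not analysed here, and the planned edgeR comparison of concentrations was not run.

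The members and lists were chosen with earlier results of these data known. Named genes were the 6 members, the pathway, liver and marker lists, and genes near member summits; 1 inhibitor gene of the fixed lists is not reported here. Pileup and background were solved from the enrichment, taken as (pileup + 1)/(background + 1), and a Poisson upper tail. This model is not stated by a source. It gave whole pileups, within 0.05, in 99.96% of summits. The solving step was tested on data simulated with the same model, which checks the arithmetic and cannot check the model. A background over the lowest value by more than 0.2% counted as raised. Gene positions came from RefSeq GRCh38.p14 and starts from its promoter table, which covered 15843 of 20037 protein-coding genes and 5 of the 6 members; otherwise both gene ends were used in counts. Distances at PLAT, the member without one, are from its upper end. Motifs were searched in the 250 bases before each start. Alternatives were other windows, a −log10 q of at least 10, intervals in place of summits, and nearest-gene assignment. Python 3.11.15, pandas 2.3.3 and scipy 1.17.1 were used.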

Additional observations from a re-analysis of the deposited data

How the results depend on the processing

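The pooled list gives no error between libraries, so the alternatives below show only how counts move with the rules. Of the 29 summits at the 6 genes, 11 remained with the gene body only and 19 at a −log10 q of at least 10. The other windows, counting each interval once, interval overlap and nearest-gene assignment gave 24 to 43. The number of genes with a summit at the start was 3 to 5 over its 5 alternatives. For the liver genes the count of 2 became 1 with a start window of 500 bp, 4 with 2500 bp and 1 at a −log10 q of at least 10. The 12 pathway genes became 10 to 14. The count of genes with their strongest summit at the start, 2, was 2 to 3 over the alternatives chosen after seeing the data. No paired analysis was possible because the list has no column for a library or a replicate number; the fits with DESeq2 and without single replicates were not run for the same reason.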

Other observations

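SERPINB2 lies in a cluster of clade B serpin genes on chromosome 18, which was read after the values of SERPINB2 were seen and is given as a description. Each of the 10 genes had at least 1 summit in the gene or within 10 kb, as did 89.8% of all protein-coding genes. At 5 of them one lay within 1000 bp of a start or, where none was tabulated, an end, against 65.9%. The 10 kb windows of neighbouring genes can overlap, so a summit may count at more than 1 gene. The highest pileup at SERPINB10, 332, belonged to a summit also assigned to SERPINB2. SERPINB8, an inhibitor of furin-like proteases at one edge of the cluster, had 13.1 at its start with a pileup of 1616, and SERPINB7 had 13.9 with a pileup of 343. SERPINB5, encoding maspin, had 10.6 at its start, above the 3.03 at the SERPINB2 start. No start was tabulated for SERPINB10, and its 11.0 lay at the gene end farther from SERPINB2. SERPINB3 and SERPINB4, the squamous cell carcinoma antigens, had 1 summit each, of enrichment 9.05 and 9.76, and none at a start. The highest pileup per gene was at most 406 fragments at 8 of the 10 genes, while SERPINB8 (1616) and SERPINB2 (1298) stood above the others.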
